A study of Mus musculus with 48 samples.

Results

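Cell cycle and DNA replication genes were examined in mouse liver after 21 days of perfluorooctanesulfonate (PFOS), a persistent fluorinated surfactant. The set is 32 genes chosen by symbol from 40847 genes with counts, and all 32 were present in the count tables of both sexes. Messenger RNA was sequenced from 48 livers, with 4 mice in each of 12 groups made of sex, genotype and dose. Mice ate a normal diet and were gavaged each day with PFOS in water and Tween, at 1 mg/kg (1-PFOS), 10 mg/kg (10-PFOS) or none (0-PFOS). Cyp2b-null mice lack Cyp2b9, Cyp2b10 and Cyp2b13 through a CRISPR deletion on C57Bl/6J, and hCYP2B6-Tg mice carry human CYP2B6, CYP2A13 and CYP2F1 on that same null background, so every mouse of the study, controls included, carries the deletion. The mice were 10 to 12 weeks old. Each dose was compared with 0-PFOS within each sex and genotype, and the changes were then compared between genotypes and sexes.

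A cell that divides first loads a helicase built of Mcm2 to Mcm7 onto replication origins, activates it with partners such as Mcm10 and copies its DNA while enzymes such as ribonucleotide reductase supply the building blocks. Cyclin B and Cdk1 then drive it into mitosis, and Cdc20 triggers its exit. Most adult hepatocytes are resting cells, and they can re-enter the cycle after injury or under mitogens that act through nuclear receptors. In whole liver, fewer cycling cells and less RNA per cycling cell cannot be told apart.

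Library totals ran from 44416597 to 82615862 counts. Levels are given as CPM, counts scaled to library size, after TMM scaling (trimmed mean of M values) within each sex, for mice in the order of their replicate numbers 1 to 4. A change is a log2 fold change ± its standard error from edgeR's quasi-likelihood test, and "rose" or "fell" means a Benjamini-Hochberg adjusted p under 0.05 over all genes tested. Reads were still assigned to the deleted genes and were higher with dose, with a median of 1.12 CPM for Cyp2b9 over the 16 mice at 0-PFOS and 28.1 CPM at 10-PFOS, although reads of similar Cyp2b genes are hard to tell apart. The 7 hepatocyte markers were all detected in every group, and their summed level was 33800 to 114000 CPM.

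Cell cycle transcripts were scarce. In mean CPM over 4 mice, 19 of the 32 genes exceeded 1 CPM in untreated Cyp2b-null females and 18 in untreated hCYP2B6-Tg females, against 14 in each genotype of untreated males. Females at 1-PFOS had 18 (Cyp2b-null) and 17 (hCYP2B6-Tg) and males 19 and 15, and at 10-PFOS females had 26 and 26 and males 22 and 18. Counted only where all 4 mice exceeded 1 CPM, the genes numbered 17 at 0-PFOS and 17 at 10-PFOS in Cyp2b-null females, 15 and 21 in hCYP2B6-Tg females, 13 and 16 in Cyp2b-null males, and 13 and 15 in males of the other genotype. The 14 genes above 1 CPM in every group were Mki67, Mcm2, Mcm3, Mcm4, Mcm6, Mcm7, Mcm10, Pcna, Rrm1, Rrm2, Tyms, Tk1, Ezh2 and Dut. The 5 genes above it in none were Ccne1 and Ccne2 (cyclin E, which with Cdk2 starts S phase), Cdc6 (which loads the helicase), Bub1 (a spindle checkpoint kinase) and Aurkb (the kinase of the chromosomal passenger complex).

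Testing required over 1 CPM in 3 mice of any 1 group, which 24 of the 32 genes reached in females and 18 in males. Besides the 5 scarce genes, Bub1b (a checkpoint kinase), Plk1 (polo-like kinase, a driver of mitosis) and Foxm1 (a transcription factor of mitotic genes) were not tested in either sex. Ccnb1, Ccnb2, Ccna2, Cdk1, Birc5 and Aurka were also not tested in males. A scarce gene that passed only through a group in which it was high had to differ from the others, so shares of tested genes are given as description.

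Promoter sequence is shown for 9 of the genes whose changes are described first, to let those that rose be read beside those that fell. Mitotic genes are known to be controlled through the cell cycle homology region (CHR) and CCAAT boxes, and S phase genes through E2F sites. The 200 bases before the start are from the RefSeq table of build GRCm38.p6, whereas the counts used GRCm39, and capitals mark matches on either strand to CHR (TTTGAA, or its palindromic form TTCGAA), to the box CCAAT, or to E2F (TTTGGCGC, TTTCCCGC, TTTCGCGC, TTTGCCGC or GGCGGGAA), which can overlap.
Mki67, chr7:135716380-135716579, minus strand: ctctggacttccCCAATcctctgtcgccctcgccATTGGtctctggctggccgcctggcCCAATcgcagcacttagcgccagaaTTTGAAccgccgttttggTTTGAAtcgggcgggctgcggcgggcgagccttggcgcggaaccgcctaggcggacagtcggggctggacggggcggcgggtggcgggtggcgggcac
Cdc20, chr4:118437344-118437543, minus strand: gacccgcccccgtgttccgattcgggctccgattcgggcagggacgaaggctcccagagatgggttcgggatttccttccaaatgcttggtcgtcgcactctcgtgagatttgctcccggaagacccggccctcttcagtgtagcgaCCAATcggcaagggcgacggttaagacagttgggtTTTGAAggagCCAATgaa
Ccnb1, chr13:100786487-100786686, minus strand: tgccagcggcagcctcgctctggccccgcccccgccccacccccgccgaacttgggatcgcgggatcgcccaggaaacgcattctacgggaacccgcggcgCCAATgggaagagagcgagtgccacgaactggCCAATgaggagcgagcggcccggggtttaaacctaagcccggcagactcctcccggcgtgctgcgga
Mcm2, chr6:88898781-88898980, minus strand: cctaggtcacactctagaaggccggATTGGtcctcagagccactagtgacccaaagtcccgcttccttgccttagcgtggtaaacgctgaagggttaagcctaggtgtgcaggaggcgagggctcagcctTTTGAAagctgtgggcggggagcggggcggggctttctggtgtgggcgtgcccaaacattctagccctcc
Mcm5, chr8:75109309-75109508, plus strand: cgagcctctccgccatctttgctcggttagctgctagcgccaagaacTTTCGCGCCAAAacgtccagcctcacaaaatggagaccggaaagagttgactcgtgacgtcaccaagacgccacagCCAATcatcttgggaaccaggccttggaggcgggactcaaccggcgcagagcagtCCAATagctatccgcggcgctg
Mcm6, chr1:128359706-128359905, minus strand: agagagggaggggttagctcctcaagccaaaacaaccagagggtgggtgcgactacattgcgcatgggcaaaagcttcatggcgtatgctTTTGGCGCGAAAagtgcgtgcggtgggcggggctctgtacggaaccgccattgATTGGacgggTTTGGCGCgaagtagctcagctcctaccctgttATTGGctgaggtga
Mcm10, chr2:5012792-5012991, minus strand: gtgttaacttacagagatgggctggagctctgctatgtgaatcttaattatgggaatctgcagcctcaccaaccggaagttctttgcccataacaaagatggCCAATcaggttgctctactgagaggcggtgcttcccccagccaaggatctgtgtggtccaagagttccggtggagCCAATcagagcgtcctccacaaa
Tk1, chr11:117826015-117826214, minus strand: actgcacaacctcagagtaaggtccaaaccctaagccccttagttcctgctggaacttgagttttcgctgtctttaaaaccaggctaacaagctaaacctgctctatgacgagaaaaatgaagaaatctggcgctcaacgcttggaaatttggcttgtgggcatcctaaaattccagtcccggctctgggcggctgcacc
Tyms, chr5:30073626-30073825, minus strand: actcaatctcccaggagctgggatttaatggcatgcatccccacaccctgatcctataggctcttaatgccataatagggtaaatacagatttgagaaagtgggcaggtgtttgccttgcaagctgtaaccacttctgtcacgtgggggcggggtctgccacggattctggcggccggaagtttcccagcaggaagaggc

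The table held 29 windows of 300 bases (250 before and 50 after the start) for 27 of the 32 genes, and none was matched for Ccna2, Ccne2, Mcm4, Aurkb or Foxm1. CCAAT stood in 79.3% of these windows and in 37.4% of all 32851 windows, CHR in 37.9% and 19.2%, and an E2F match in 34.5% and 3.89%. In the stretches printed, CHR letters stand in Mki67, Cdc20 and Mcm2, E2F letters in Mcm5 and Mcm6, and CCAAT on either strand in Mki67, Cdc20, Ccnb1, Mcm2, Mcm5, Mcm6 and Mcm10. Those of Tk1 and Tyms hold none of the letters searched, which says nothing of which factors act on them.

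At 10-PFOS the genes did not move as 1 block. Of the Mcm2 to Mcm7 helicase, Mcm2 rose in all 4 sex and genotype groups and Mcm6 in 3. Mcm4 and Mcm5 rose in males only, and Mcm3 and Mcm7 in 1 group each. Several mitotic genes passed the test in hCYP2B6-Tg females and Cyp2b-null males, and Mcm10, Tk1 and Tyms fell in 4, 3 and 3 of the 4 groups. In each of the other 2 groups 1 mitotic gene passed the test, Birc5 in Cyp2b-null females (edgeR adjusted p = 0.0499) and Cdc20 in hCYP2B6-Tg males, and both calls carry limits given with these genes. In Cyp2b-null females 3 of the 24 tested genes rose and 2 fell, while 19.1% of all 13193 tested genes rose and 17.8% fell. In hCYP2B6-Tg females 7 of 24 rose and 3 fell, against 22.3% and 24.5% of all genes. In Cyp2b-null males 7 of 18 rose and 3 fell, against 22.5% and 21.6% of all 12594 tested genes, and in hCYP2B6-Tg males 7 of 18 rose and 2 fell, against 24.1% and 23.9%. In hCYP2B6-Tg females Ccnb1, Ccnb2, Ccna2 and Birc5 were tested only because of the treated mice of that group, and of the other 20 genes 4 rose (20.0%). In hCYP2B6-Tg males the same held for Uhrf1, and 6 of the other 17 rose. Among females Uhrf1 was tested only because of the treated Cyp2b-null mice, and 3 of the other 23 genes rose in that group. Among males Top2a, Cdc20 and Mcm5 also passed the filter only through PFOS-treated groups. The counts and medians of both sexes include genes tested only through treated groups and are given as description. The median log2 fold change of the tested genes was 0.36, 0.33, 0.59 and 0.44 in Cyp2b-null and hCYP2B6-Tg females and then in males of these genotypes, beside -0.01, -0.05, -0.01 and -0.02 for all genes.

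**Figure D1:**
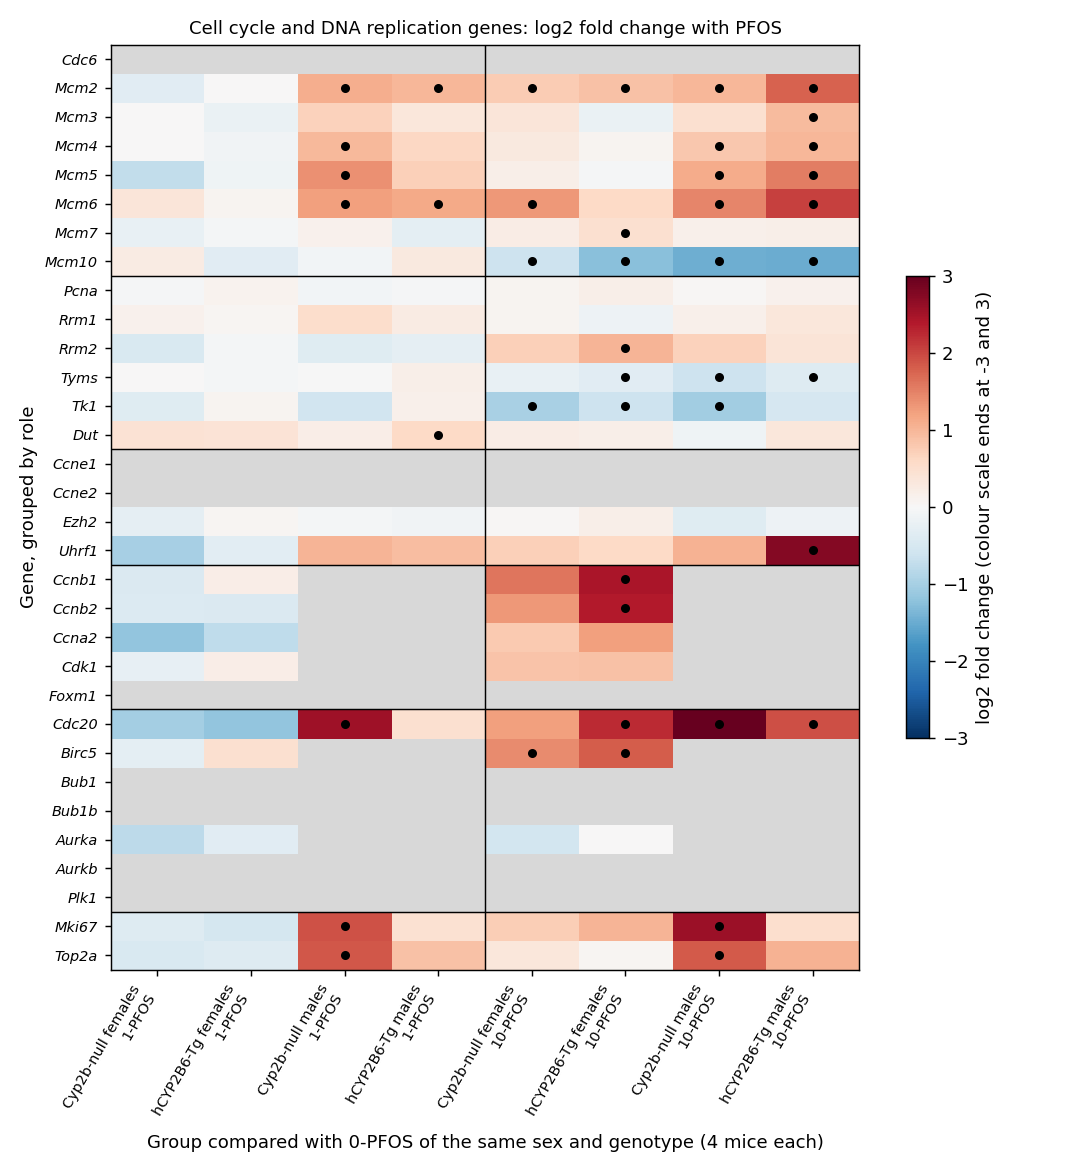
Heat map of the log2 fold change of the 32 genes (rows, by role) at 1-PFOS and 10-PFOS against 0-PFOS in each sex and genotype (columns); colour gives the log2 fold change, ending at -3 and 3, a dot marks an adjusted p under 0.05 and grey a gene not tested. Mcm2 has a dot in all 4 columns of 10-PFOS, and so does Mcm10, with the opposite colour.

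Scaling bears on these splits. With library totals in place of TMM the median of all genes at 10-PFOS moved to -0.09 and -0.17 in Cyp2b-null and hCYP2B6-Tg females, and to 0.23 and 0.30 in the same genotypes of males. The genes that rose and fell were then 2 and 2, 6 and 3, 9 and 2, and 12 and 1. Leaving out the filter on low counts gave 16 genes that rose and 3 that fell among Cyp2b-null males.

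The replicative helicase gave the changes most widely shared between the groups. Mcm2 (a helicase subunit) measured 2.47, 2.68, 3.33 and 3.15 CPM in Cyp2b-null females at 0-PFOS and 5.08, 6.07, 5.26 and 3.27 CPM at 10-PFOS. In hCYP2B6-Tg females it was 3.11, 1.89, 2.30 and 1.72 CPM at 0-PFOS and 3, 3.16, 4.56 and 5.76 CPM at 10-PFOS. The groups overlapped in both genotypes of females, each time through 1 low mouse at 10-PFOS or 1 high mouse at 0-PFOS. In males, Mcm2 went from 1.49, 2.11, 1.51 and 1.40 to 3.34, 3.43, 2.77 and 3.52 CPM in Cyp2b-null and from 1.09, 0.995, 1.82 and 1.28 to 4.21, 5.83, 3.72 and 3.82 CPM in hCYP2B6-Tg. Every treated male lay above every untreated male of its genotype. The log2 fold changes of Mcm2 were 0.76 ± 0.25 (edgeR adjusted p = 0.0215), 0.87 ± 0.26 (0.00763), 1.00 ± 0.22 (0.000592) and 1.76 ± 0.22 (5.41e-07), the first pair for Cyp2b-null and hCYP2B6-Tg females and the second for males of the same genotypes. In Cyp2b-null females the call was lost without replicate 1 or 2 at 0-PFOS (edgeR adjusted p = 0.0614 and 0.0512) or replicate 2 at 10-PFOS (0.0694).

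Mcm6, another subunit of the ring, rose in 3 groups. Its levels in males were 2.34, 1.67, 2.27 and 2.25 CPM at 0-PFOS against 5.38, 5.45, 4.69 and 8.12 CPM at 10-PFOS in Cyp2b-null mice. In hCYP2B6-Tg males they were 1.52, 1.60, 1.99 and 1.75 against 8.11, 9.98, 5.29 and 5.27 CPM. Treated and untreated males were far apart in both genotypes. In Cyp2b-null females Mcm6 was 3.10, 3.96, 5.07 and 3.69 CPM at 0-PFOS and 9.46, 12.9, 9.64 and 6.89 CPM at 10-PFOS, again without overlap. In hCYP2B6-Tg females it was 7.58, 3, 4.39 and 4.08 against 5.05, 3.38, 7.43 and 12.9 CPM, and the mice were interleaved. The log2 fold changes were 1.47 ± 0.21 (edgeR adjusted p = 4.16e-06) and 2.06 ± 0.21 (2.95e-08) in Cyp2b-null and hCYP2B6-Tg males, 1.29 ± 0.33 (0.00375) in Cyp2b-null females and 0.60 (0.144) in hCYP2B6-Tg females.

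Of the other ring subunits, Mcm5 and Mcm4 passed the test in both genotypes of males. Mcm5 rose by 1.12 ± 0.33 on the log2 scale in Cyp2b-null males (edgeR adjusted p = 0.00723) and by 1.54 ± 0.32 (0.00035) in hCYP2B6-Tg males, and Mcm4 by 0.82 ± 0.24 (0.00855) and 0.99 ± 0.24 (0.00167). Among males Mcm5 passed the filter only through treated groups, so its values in males are given as description. In females Mcm3, Mcm4 and Mcm5 did not pass the test. Their log2 fold changes were 0.37, 0.28 and 0.18 in Cyp2b-null and -0.20, 0.07 and -0.04 in hCYP2B6-Tg females. Mcm3 rose in hCYP2B6-Tg males by 0.95 ± 0.25 (0.00296), and Mcm7 in hCYP2B6-Tg females by 0.48 ± 0.15 (0.0123), a call lost without replicate 4 at 10-PFOS (0.0625). Exons of Mcm7 overlap those of Cops6 and Ap4m1 in GENCODE vM21, and no source used here states the strand setting of the counting, so its value is uncertain. Cops6, a subunit of the COP9 signalosome, rose in the same group from a mean of 54.2 to 91.9 CPM.

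Mcm10, a replication factor that helps to activate the loaded helicase, went the other way in every group. It was 29.4, 26.4, 20.4 and 28.9 CPM in Cyp2b-null males at 0-PFOS and 8.47, 8.84, 11.5 and 9 CPM at 10-PFOS. In hCYP2B6-Tg males it was 23.6, 39.7, 33.9 and 28.6 against 11.5, 5.52, 14 and 13.7 CPM. No treated male reached the level of any untreated male. Females had 10.4, 15.0, 16.3 and 19.5 CPM at 0-PFOS and 6.35, 6.41, 5.11 and 7.91 CPM at 10-PFOS in hCYP2B6-Tg, and 11.9, 8.37, 11.1 and 8.64 against 4.07, 7.93, 4.38 and 9.62 CPM in Cyp2b-null mice. The groups were apart in hCYP2B6-Tg females and overlapped in Cyp2b-null females. The log2 fold changes of Mcm10 were -1.48 ± 0.23 (edgeR adjusted p = 1.72e-05) in Cyp2b-null males, -1.49 ± 0.23 (1.15e-05) in hCYP2B6-Tg males, -1.25 ± 0.24 (0.000195) in hCYP2B6-Tg females and -0.62 ± 0.24 (0.0438) in Cyp2b-null females. The last call was lost without replicate 1 or 3 at 0-PFOS (0.119 and 0.0997), without replicate 1 or 3 at 10-PFOS (0.158 and 0.152), and with library totals (0.0529). No other annotated gene shares exon bases with Mcm10.

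**Figure D2:**
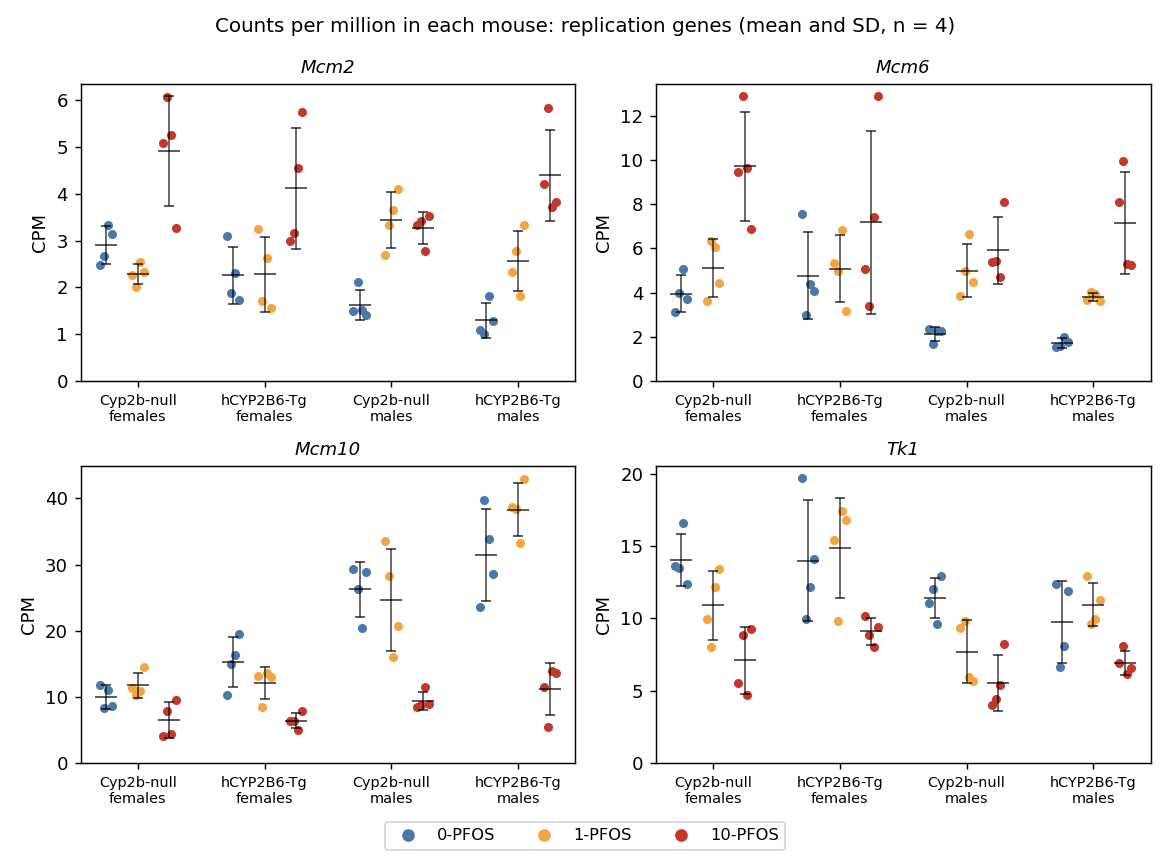
CPM of Mcm2, Mcm6, Mcm10 and Tk1 in each of the 48 mice by sex, genotype and PFOS dose; points are mice, and bars give the mean ± SD of 4 mice. In males, Mcm6 at 10-PFOS lies between 4.69 and 9.98 CPM and at 0-PFOS between 1.52 and 2.34 CPM, whereas Mcm10 at 10-PFOS lies between 5.52 and 14 CPM and at 0-PFOS between 20.4 and 39.7 CPM.

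Genes of DNA precursor supply were split. Tk1, thymidine kinase, which recycles thymidine for DNA synthesis, was 13.6, 13.5, 16.6 and 12.4 CPM in Cyp2b-null females at 0-PFOS and 5.56, 8.88, 4.69 and 9.30 CPM at 10-PFOS. In Cyp2b-null males it was 11.1, 12.0, 9.61 and 12.9 against 4.05, 4.42, 5.44 and 8.26 CPM. Treated Cyp2b-null mice of both sexes lay below all untreated ones. The log2 fold changes of Tk1 were -0.98 ± 0.23 (edgeR adjusted p = 0.00152) in Cyp2b-null females, -1.04 ± 0.22 (0.000455) in Cyp2b-null males, -0.61 ± 0.22 (0.0284) in hCYP2B6-Tg females and -0.49 (0.0642) in hCYP2B6-Tg males. In hCYP2B6-Tg females the call was lost without replicate 1 or 4 at 0-PFOS (0.153 and 0.0506) or replicate 2 or 3 at 10-PFOS (0.0581 and 0.0757). Exons of Tk1 overlap those of Afmid, which encodes a formamidase of tryptophan breakdown. Afmid went from 130 to 106 CPM in Cyp2b-null females (edgeR adjusted p = 0.0425) and from 86.3 to 104 CPM in hCYP2B6-Tg males (0.0447), so the count of Tk1 is uncertain.

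Tyms, thymidylate synthase, which makes the thymidine nucleotide anew, was 15.6, 19.2, 11.8 and 15.1 CPM in Cyp2b-null males at 0-PFOS and 9.20, 11.5, 8.85 and 10.4 CPM at 10-PFOS. The highest treated male lay just under the lowest untreated one. The log2 fold change of Tyms was -0.63 ± 0.15 (edgeR adjusted p = 0.00173) there, -0.40 ± 0.15 (0.0323) in hCYP2B6-Tg males, -0.33 ± 0.12 (0.0251) in hCYP2B6-Tg females and -0.23 (0.138) in Cyp2b-null females. With library totals the calls in males were lost (0.0563 in Cyp2b-null and 0.718 in hCYP2B6-Tg males). In hCYP2B6-Tg mice the call was also lost without single libraries, namely replicates 2, 3 or 4 at 0-PFOS and 2 or 4 at 10-PFOS in males (adjusted p from 0.0525 to 0.123) and replicate 1 at 0-PFOS and 1, 3 or 4 at 10-PFOS in females (0.0551 to 0.0904).

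Rrm2, the regulated subunit of ribonucleotide reductase, was 3.23, 2.09, 2.96 and 3.32 CPM in hCYP2B6-Tg females at 0-PFOS and 6.61, 4.48, 3.78 and 8.66 CPM at 10-PFOS, with no overlap. It rose there by 1.02 ± 0.33 on the log2 scale (edgeR adjusted p = 0.015), a call lost without replicate 4 at 10-PFOS (0.0702). In the other 3 groups Rrm2 had log2 fold changes of 0.38 to 0.70 without passing the test. Rrm1, the large subunit of the same enzyme, Pcna, the sliding clamp of the polymerases, and Dut, which keeps uracil out of DNA, passed the test in no group at 10-PFOS, with log2 fold changes from -0.15 to 0.33. Pcna had the narrowest spread, between 0.04 and 0.19.

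Uhrf1, which couples DNA methylation to replication, was 0.033, 0.221, 0.140 and 0.370 CPM in hCYP2B6-Tg males at 0-PFOS and 1.31, 2.21, 0.665 and 0.978 CPM at 10-PFOS. All treated mice lay above all untreated ones, at levels around the limit of the filter, and among males Uhrf1 was tested only because of these treated mice. The log2 fold change of Uhrf1 was 2.75 ± 0.58 (edgeR adjusted p = 0.000416), given as description. Ezh2, the methyltransferase of Polycomb complex PRC2, changed by -0.37 to 0.18 and passed the test in none.

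Mitotic genes differed most between mice of a group. Mki67, whose protein Ki-67 coats mitotic chromosomes and marks cycling cells, was 0.695, 0.316, 1.51 and 1.58 CPM in Cyp2b-null males at 0-PFOS and 4.29, 2.73, 2.95 and 14.6 CPM at 10-PFOS. In hCYP2B6-Tg males it was 1.09, 1.77, 2.39 and 1.82 against 2.16, 4.07, 2.19 and 1.64 CPM. The groups were apart in Cyp2b-null males and overlapped in hCYP2B6-Tg males. The log2 fold change of Mki67 was 2.58 ± 0.51 (edgeR adjusted p = 0.000242) in the former and 0.51 (0.411) in the latter. Top2a, the topoisomerase that untangles chromosomes, rose with it in Cyp2b-null males by 1.85 ± 0.45 (0.00165), and changed by 1.04 (0.0573) in hCYP2B6-Tg males. Among males Top2a passed the filter only through treated groups, so its values in males are given as description.

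Cdc20, the activator of the anaphase-promoting complex, rose in 3 groups. It was 0.0632, 0.347, 0.212 and 0.243 CPM in Cyp2b-null males at 0-PFOS and 2.69, 1.77, 1.1 and 6.94 CPM at 10-PFOS. In hCYP2B6-Tg males it was 0.165, 0.718, 0.168 and 0.168 against 1.12, 1.61, 1.22 and 0.789 CPM. In hCYP2B6-Tg females it was 1.78, 0.371, 1.07 and 1.16 against 6.48, 2.50, 4.19 and 7.39 CPM. Treated and untreated mice did not overlap in these 3 groups. The log2 fold changes of Cdc20 were 3.84 ± 0.65 (edgeR adjusted p = 3.78e-05), 1.93 ± 0.61 (0.0116) and 2.24 ± 0.72 (0.0134). Among males Cdc20 passed the filter only through treated groups, so it had to be high there to be tested, and its values in males are given as description. Exons of Cdc20 overlap those of Elovl1, a fatty acid elongase, which itself rose in all 4 groups (for example from 22.4 to 37.5 CPM in Cyp2b-null males), so the level of Cdc20 is uncertain.

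In hCYP2B6-Tg females the B cyclins and survivin also passed the test. Among females Ccnb1, Ccnb2 and Birc5 exceeded 1 CPM in 3 or more mice only in this group at 10-PFOS, so they had to differ here to be tested at all, and their values are given as description. Ccnb1, which with Cdk1 starts mitosis, was 1.04, 0.101, 0.739 and 0.265 CPM at 0-PFOS and 3.74, 1.05, 2.14 and 4.62 CPM at 10-PFOS. Its lowest treated mouse stood just above its highest untreated one. The log2 fold change of Ccnb1 was 2.45 ± 0.92 (edgeR adjusted p = 0.0329), lost without replicate 2 or 4 at 0-PFOS (0.0855 and 0.0856) or replicate 1 or 4 at 10-PFOS (0.0663 and 0.078). Reads may be shared with its pseudogene Ccnb1-ps, which went from 0.393 to 2.30 CPM (0.0321). Ccnb2, a second B cyclin, had a log2 fold change of 2.37 ± 0.73 (0.0108). Birc5 (survivin, a partner of Aurkb) had 1.81 ± 0.58 (0.0133), from 0.414, 0.337, 0.863 and 0.564 to 1.78, 1.45, 1.78 and 2.59 CPM. Ccna2 (cyclin A, for S phase and mitotic entry) changed by 1.24 (0.0639), Cdk1 (the mitotic kinase) by 0.89 (0.132) and Aurka (a spindle pole kinase) by 0.00 (0.996).

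In Cyp2b-null females 1 mouse set most of the mitotic values. Mki67 was 5.16, 6.80, 6.36 and 4.28 CPM at 0-PFOS and 1.36, 25.5, 2.39 and 8.35 CPM at 10-PFOS. Ccnb1 was 0.662, 0.866, 0.527 and 0.455 against 0, 5.73, 0.11 and 1.78 CPM, and Cdc20 was 2.13, 1.40, 2.40 and 0.695 against 0.219, 11.8, 0.699 and 2.79 CPM. Replicate 2 was far above the untreated mice, while replicate 1 was below all of them for these genes and replicate 3 for Mki67 and Ccnb1. Birc5 was the 1 mitotic gene past the test, at 1.42 ± 0.56 (edgeR adjusted p = 0.0499). That call was lost without replicate 2 at 10-PFOS (log2 fold change 0.61, adjusted p = 0.404), without replicate 4 at 10-PFOS (0.0846), and without any 1 of the 4 mice at 0-PFOS (0.0656 to 0.101). Without replicate 2 the log2 fold change of Mki67 went from 0.74 to -0.46, that of Cdc20 from 1.23 to -0.38, and that of Aurka from -0.55 to -1.29, which then passed the test (0.026).

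A mouse that was high for most genes stood in every 10-PFOS group. Replicate 2 of Cyp2b-null females was the highest of its group for 27 of the 32 genes, replicate 4 of hCYP2B6-Tg females for 27, replicate 4 of Cyp2b-null males for 28, and replicate 2 of hCYP2B6-Tg males for 20. In the groups at 0-PFOS and 1-PFOS no mouse was the highest for more than 19. Without these mice, which were picked by their values, Mki67 in Cyp2b-null males went from 2.58 to 1.69 (edgeR adjusted p = 0.00287), Top2a from 1.85 to 1.00 (0.0302) and Cdc20 from 3.84 to 3.09 (0.000257). In hCYP2B6-Tg females Ccnb2 went from 2.37 to 1.95 (0.0401) and Cdc20 from 2.24 to 2.01 (0.034). Of the helicase genes, Mcm6 went from 2.06 to 1.86 (1.59e-07) and Mcm5 from 1.54 to 1.11 (0.00372) in hCYP2B6-Tg males, and Mcm10 from -1.48 to -1.45 (0.000117) in Cyp2b-null males. In Cyp2b-null females the calls of Mcm2 (0.65, 0.0694) and Birc5 (0.61, 0.404) were lost. Those of Mcm7 (0.36, 0.0625), Ccnb1 (2.13, 0.078), Rrm2 (0.78, 0.0702) and Tyms (-0.32, 0.0551) were lost in hCYP2B6-Tg females, and that of Tyms (-0.30, 0.123) in hCYP2B6-Tg males.

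**Figure D3:**
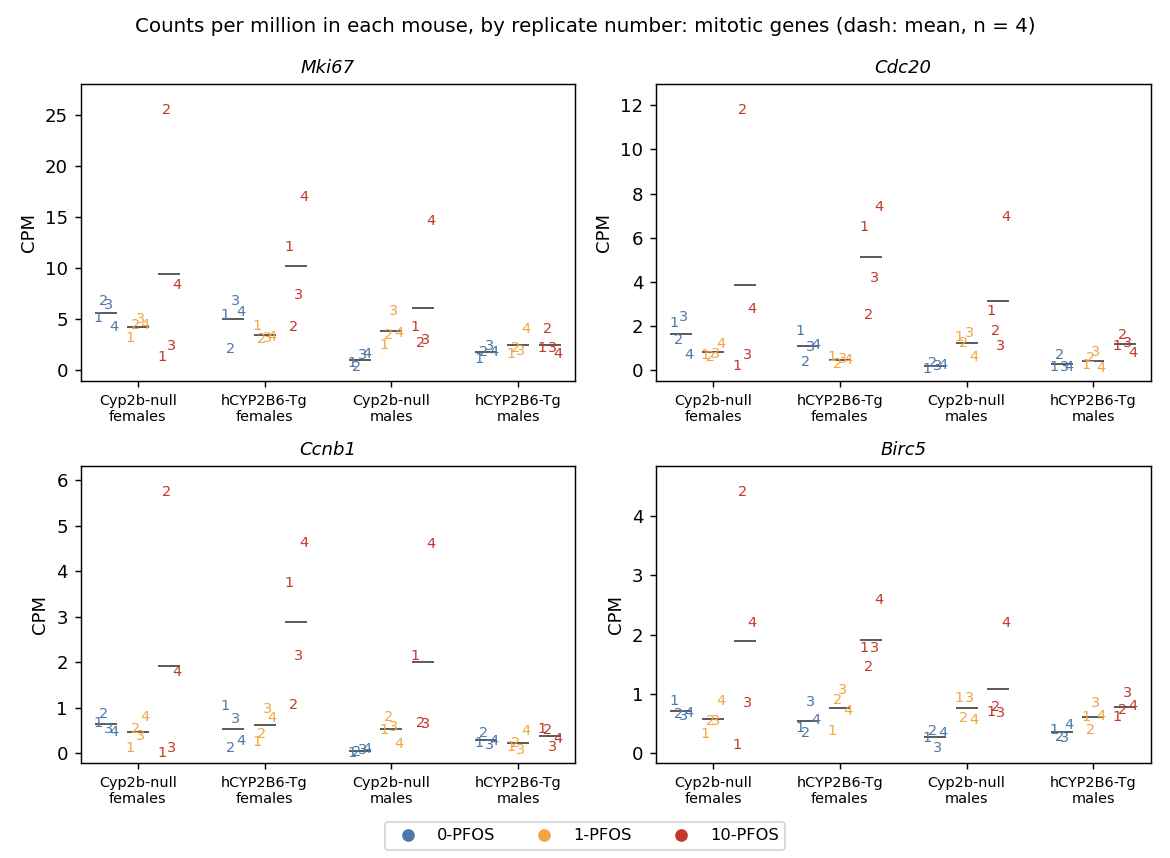
CPM of Mki67, Cdc20, Ccnb1 and Birc5 by sex, genotype and PFOS dose; each digit is 1 mouse, printed as its replicate number, and the dash is the mean of 4 mice. In Cyp2b-null females at 10-PFOS the mouse numbered 2 has 25.5 CPM of Mki67 and the others 1.36 to 8.35 CPM.

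Several genes not tested in males were highest in replicate 4 of the Cyp2b-null males at 10-PFOS. For Ccnb1, Ccnb2, Ccna2, Cdk1, Birc5 and Foxm1, however, all treated mice of that group lay above all untreated Cyp2b-null males. Ccnb1 in Cyp2b-null males was 0, 0.0316, 0.0605 and 0.0911 CPM at 0-PFOS and 2.14, 0.663, 0.640 and 4.60 CPM at 10-PFOS, with no overlap and too few mice over 1 CPM for the filter. Plk1 reached 2.61 CPM and Foxm1 1.29 CPM in replicate 4 of that group, and the other treated Cyp2b-null males had at most 0.462 and 0.442 CPM. Foxm1 was at least 0.355 CPM in the treated and at most 0.221 CPM in the untreated Cyp2b-null males, whereas Plk1 overlapped. In replicate 2 of treated Cyp2b-null females Plk1 and Foxm1 reached 3.07 and 2.07 CPM, and Aurkb and Bub1 2.31 and 1.14 CPM.

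At 1-PFOS the genes of females passed no test, whereas some in males did. The comparisons at 1-PFOS and 10-PFOS share the mice at 0-PFOS. In females 0 of 24 genes were called by edgeR or by DESeq2 in either genotype, and 2 in Cyp2b-null and 1 in hCYP2B6-Tg females had an unadjusted edgeR p under 0.05. Of all genes 0.432% rose and 0.265% fell in Cyp2b-null females and 1.69% and 0.584% in hCYP2B6-Tg females. Among males of the Cyp2b-null genotype 7 of 18 rose and 0 fell, against 2.32% and 1.3% of all genes, and in hCYP2B6-Tg males 3 of 18 rose and 0 fell, against 8.72% and 5.98%. Of those 7, Top2a, Cdc20 and Mcm5 passed the filter in males only through treated groups, Cyp2b-null males at 1-PFOS among them. The share of 7 in 18 is therefore given as description.

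In Cyp2b-null males at 1-PFOS, Mcm2 was 2.69, 3.33, 3.66 and 4.11 CPM and Mcm6 was 3.86, 4.99, 6.65 and 4.50 CPM. All 4 mice lay above the untreated males in both genes, which rose by 1.08 ± 0.22 (edgeR adjusted p = 0.00466) and 1.23 ± 0.21 (0.00106) on the log2 scale. Mcm4 rose by 0.97 (0.0238), Mcm5 by 1.37 (0.0169), Mki67 by 1.90 (0.0336), Top2a by 1.87 (0.0174) and Cdc20 by 2.53 (0.0252). These last 5 calls depended on single mice. All 5 were lost without replicate 3 at 1-PFOS (adjusted p from 0.0513 to 0.143), where 2 genes were called. Mki67 and Mcm4 were also lost without replicate 4 at 1-PFOS (0.0578 and 0.0952), and among the untreated males Mki67 was lost without replicate 1 or 2, Top2a without 2, Cdc20 without 1, 3 or 4, Mcm4 without 1, 3 or 4 and Mcm5 without 3 (0.0506 to 0.111). With library totals 4 genes were called. The summed level of the 10 macrophage markers in these 4 mice was 126, 118, 289 and 286 CPM, against 94.7 to 193 CPM in untreated Cyp2b-null males, and its part was not tested. In hCYP2B6-Tg males Mcm2 rose by 0.99 ± 0.22 (0.00391), Mcm6 by 1.15 ± 0.21 (0.000755) and Dut by 0.60 ± 0.16 (0.0112). The call of Dut was lost without replicate 2 at 0-PFOS (0.0538). Mcm10 in males at 1-PFOS was 33.5, 28.3, 16.1 and 20.8 CPM in Cyp2b-null and 38.7, 38.4, 33.2 and 42.9 CPM in hCYP2B6-Tg mice, overlapping the untreated range, and did not pass the test.

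No gene was called between the genotypes when the filter on low counts was used. hCYP2B6-Tg and Cyp2b-null mice compared at 1 dose gave 0 calls by edgeR and 0 by DESeq2 in each of the 6 comparisons. The genes with an unadjusted edgeR p under 0.05 numbered 1 in females and 1 in males at 0-PFOS, 0 and 6 at 1-PFOS, and 0 and 3 at 10-PFOS. Of all genes 0% differed in either sex at 0-PFOS, 0% in females and 0.889% in males at 1-PFOS, and 3.59% and 0.0556% at 10-PFOS. The effect of 10-PFOS itself differed between genotypes for 0 of the genes in females and 0 in males by edgeR and by DESeq2, against 0% and 0% of all genes, with 0 and 4 at an unadjusted edgeR p under 0.05. Those 4 were Mki67 (difference of log2 fold changes, hCYP2B6-Tg minus Cyp2b-null, -2.07 ± 0.70, edgeR adjusted p = 0.427), Cdc20 (-1.91 ± 0.88, 0.558), Mcm2 (0.75 ± 0.31, 0.506) and Dut (0.46 ± 0.22, 0.58). The larger rise of Mki67 and Cdc20 in Cyp2b-null males and of Mcm2 in hCYP2B6-Tg males was therefore not shown to differ. Without the filter 1 gene was called in this comparison in males.

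The effect of 10-PFOS differed between the sexes for 1 gene. In Cyp2b-null mice 0 of 24 genes passed edgeR or DESeq2, with 6 at an unadjusted edgeR p under 0.05, against 0.949% of all 13271 genes. In hCYP2B6-Tg mice Mcm6 passed, against 6.5% of all genes, with a female minus male difference in log2 fold change of -1.48 ± 0.41 (edgeR adjusted p = 0.0194). The log2 fold change of Mcm6 was the smaller in hCYP2B6-Tg females, where it did not pass the test (0.60, 0.144). The call was lost without replicate 1 of the females at 0-PFOS (0.0911), replicates 1 or 2 of the females at 10-PFOS (0.0507 and 0.0571) or replicate 2 of the males at 10-PFOS (0.0587). Mcm5 (-1.61 ± 0.52, 0.0534), Mcm3 (-1.17 ± 0.39, 0.0594), Mcm2 (-0.91 ± 0.33, 0.092) and Mcm4 (-0.94 ± 0.38, 0.133) had the same sign and did not pass. Without replicate 4 of the females at 10-PFOS 6 genes passed, and in Cyp2b-null mice 4 passed without replicate 2 of the females at 10-PFOS.

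Some genes already differed between untreated females and males, in a comparison added after the data had been seen and given on a scale common to all 48 libraries. In Cyp2b-null mice 8 of 24 genes were higher in females and 1 was lower, against 7.33% and 5.45% of all genes, and in hCYP2B6-Tg mice 3 were higher and 1 lower, against 12.6% and 9.19%, so the shares in hCYP2B6-Tg mice were no larger than among all genes. Ccnb1, Ccnb2, Ccna2, Cdk1, Birc5 and Aurka passed the filter only through groups of females, Cdk1 and Aurka through untreated Cyp2b-null females among them. These counts and shares are therefore given as description. Mcm10 was the gene lower in females of both genotypes. On this scale it was 10.5, 7.46, 9.86 and 7.64 CPM in Cyp2b-null females and 32.9, 29.5, 22.6 and 32.3 CPM in Cyp2b-null males. It was 9.17, 13.3, 14.4 and 17.3 CPM in hCYP2B6-Tg females and 26.5, 44.2, 37.4 and 32.1 CPM in hCYP2B6-Tg males. The sexes did not overlap, and the log2 difference of Mcm10, female minus male, was -1.73 ± 0.25 (edgeR adjusted p = 2.08e-06) and -1.37 ± 0.24 (5.95e-05).

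Of the mitotic genes, 7 were higher in untreated Cyp2b-null females than in untreated Cyp2b-null males, while Ccnb2 (1.84, edgeR adjusted p = 0.0981) and Birc5 (1.08, 0.185) did not pass. In hCYP2B6-Tg mice Top2a passed, and Mki67, Ccnb1, Ccnb2, Ccna2, Cdk1, Cdc20, Birc5 and Aurka did not (0.131 to 0.769). Top2a was 2.19, 3.38, 3.65 and 1.73 CPM in Cyp2b-null females and 0.637, 0.317, 0.535 and 0.577 CPM in Cyp2b-null males, a log2 difference of 2.40 ± 0.52 (edgeR adjusted p = 0.00156). In hCYP2B6-Tg mice it was 2.22 ± 0.52 (0.00194), with 1 low female inside the range of the males. Mki67 was 4.57, 6.06, 5.63 and 3.78 CPM in Cyp2b-null females and 0.778, 0.353, 1.67 and 1.76 CPM in males, a difference of 2.13 ± 0.59 (0.0122). Ccnb1 (3.37), Cdc20 (2.59), Ccna2 (1.98), Cdk1 (1.53), Aurka (1.24) and Mcm5 (1.21) were also higher in Cyp2b-null females, with adjusted p from 0.0172 to 0.0455. The values of Ccnb1, Ccna2, Cdk1 and Aurka, tested only through females, are given as description. In hCYP2B6-Tg females Mcm6 (1.14, 0.00464) and Mcm3 (0.75, 0.0454) were higher. Apart from Top2a and Mcm10, each of these calls was lost without 1 or more of the mice compared (adjusted p from 0.0505 to 0.168), and without replicate 2 of the males 3 genes were called in Cyp2b-null mice. The call of Mki67 was lost without that male (0.0675), that of Cdc20 without replicate 1 of the males (0.0675) and that of Mcm6 without replicate 1 of the females (0.0545). Ccna2 was lost without female 3 or male 2, Ccnb1 without female 2 or males 1, 2 or 3, Mcm5 without females 2 or 3 or males 2, 3 or 4, Cdk1 without females 2, 3 or 4 or males 1, 2 or 4, and Aurka without any mouse but female 4. In hCYP2B6-Tg mice Mcm3 was lost without females 1, 3 or 4 or males 1, 2 or 4. With library totals in place of TMM the median of all genes moved to 0.43 and 0.46, and 17 and 14 genes were then higher in females and 1 and 1 lower.

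**Figure D4:**
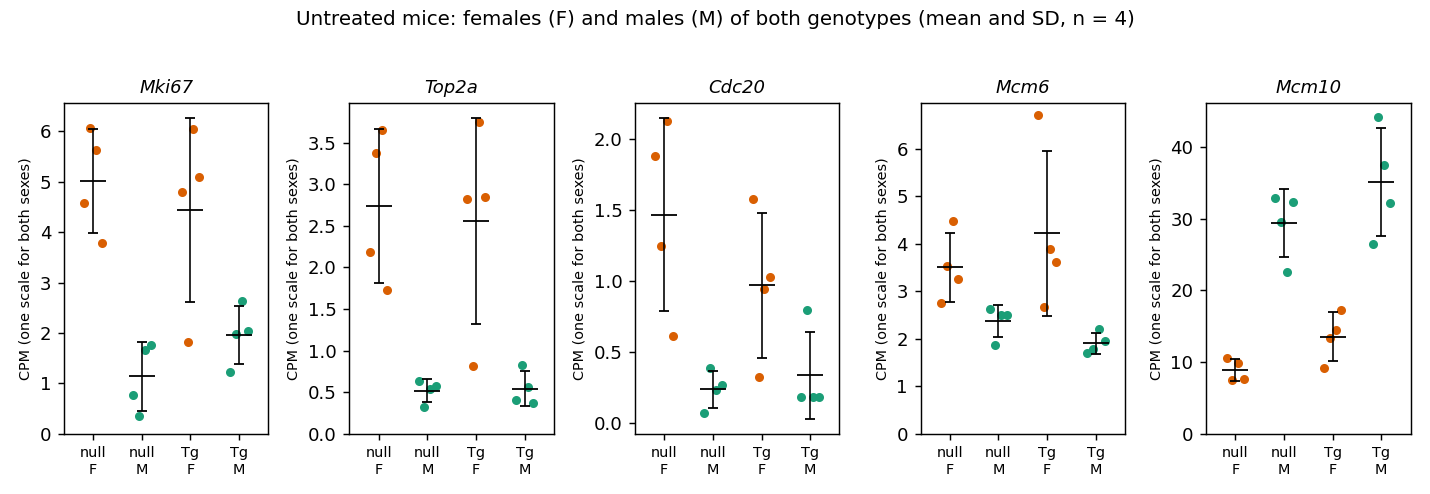
CPM on the scale of the fit of 48 libraries for Mki67, Top2a, Cdc20, Mcm6 and Mcm10 in untreated females and males of both genotypes; points are mice, and bars give the mean ± SD of 4 mice. Mcm10 lies at 7.46 to 17.3 CPM in females and 22.6 to 44.2 CPM in males.

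Genes that act beside these 32 were counted in 11 lists of 180 genes, given for 10-PFOS in a fixed order, first Cyp2b-null and hCYP2B6-Tg females, then males of the same genotypes. Over the lists together, 22 and 25 of 138 tested genes rose in females (15.9% and 18.1%) and 32 and 31 of 123 in males (26.0% and 25.2%), close to the 19.1%, 22.3%, 22.5% and 24.1% of all genes. The genes that fell numbered 12, 23, 16 and 19, against 17.8%, 24.5%, 21.6% and 23.9% of all genes, so their share was below that of all genes in every group. The counts of single lists are read against these shares. The filter on low counts applied to the lists too, so a gene scarce in untreated mice may have been tested only because treated mice were high. Of the origin licensing and firing list, 4, 4, 5 and 3 genes rose and 1, 1, 0 and 0 fell, out of 13 tested in females and 12 in males (median log2 fold change 0.46, 0.17, 0.31 and 0.32). Cdc45, the helicase cofactor that joins the Mcm ring when an origin fires, rose in Cyp2b-null females by 0.92 (edgeR adjusted p = 0.0165) and in hCYP2B6-Tg females by 1.30 (0.00117). Its untreated mean was 0.823 CPM in hCYP2B6-Tg females, so that rise is given as description. Gmnn (geminin, which blocks a second loading of the helicase) rose in 3 groups, by up to 0.88 (0.00105), and Gins1, a subunit of the same helicase, in hCYP2B6-Tg mice, by 0.66 in females and 0.73 in males. Recql4, a helicase of origin firing, fell in Cyp2b-null females, by 1.12 on the log2 scale (0.0255).

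Of DNA polymerases and fork proteins 1, 1, 3 and 7 rose and 2, 3, 4 and 2 fell of 23 tested (medians -0.02, -0.10, -0.09 and 0.21), so that fewer rose in females than the share of all genes. Pole, the leading strand polymerase, rose in both genotypes of males, by 0.91 (edgeR adjusted p = 0.0219) and 1.20 (0.00279), and Chaf1a, which deposits histones behind the fork, in 3 groups, by 1.05 to 1.24. Rfc5 and Rfc4, subunits of the clamp loader, went opposite ways, since Rfc5 fell in all 4 groups (-0.37 to -0.96) and Rfc4 rose in hCYP2B6-Tg males (0.94, 0.00513). Untreated means were under 1 CPM for Pole (0.914 CPM) and Rfc4 (0.643 CPM) in hCYP2B6-Tg males and Chaf1a (0.733 CPM) in Cyp2b-null females. These rises are therefore given as description. Of nucleotide supply genes 1, 3, 3 and 4 rose and 2, 3, 2 and 2 fell of 10 tested (medians 0.01, -0.15, 0.22 and 0.20). Dtymk, which acts after Tk1 and Tyms to make thymidine diphosphate, rose in all 4 groups, by 0.44 to 0.71. Samhd1, which breaks deoxynucleotides down, fell in all 4, from means of 21.0 to 8.74 CPM in Cyp2b-null females (log2 fold change -1.26, edgeR adjusted p = 5.15e-07) and from 9.53 to 5.39 CPM in hCYP2B6-Tg males. Rrm2b, a ribonucleotide reductase subunit of resting cells, rose in both genotypes of males (0.70 and 0.76), and Dck, deoxycytidine kinase, rose in hCYP2B6-Tg males (0.67) and fell in hCYP2B6-Tg females (-0.70).

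Of the cyclins and kinases of the first gap phase 2, 1, 4 and 4 rose and 2, 5, 2 and 3 fell of 11 tested (medians -0.22, -0.15, -0.15 and -0.07). Ccnd1, cyclin D1, which starts the cycle, rose in males, from means of 7.01 to 16.7 CPM in Cyp2b-null (log2 fold change 1.26 ± 0.29, edgeR adjusted p = 0.00103) and from 9.25 to 20.6 CPM in hCYP2B6-Tg mice (1.15 ± 0.28, 0.00177), and fell in hCYP2B6-Tg females, from 74.4 to 40.3 CPM (-0.88 ± 0.25, 0.00603). Cdk2, the partner of cyclin E, fell in all 4 groups (-0.75 to -1.16). Ccng1, a target of p53, rose in 3 groups (0.38 to 0.76), and its relative Ccng2 fell in all 4 (-0.52 to -0.72).

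Of the CDK inhibitors and related brakes on division 0, 1, 1 and 2 rose and 2, 2, 1 and 2 fell of 7 tested (medians -0.11, -0.40, 0.08 and 0.37). Cdkn1a, which encodes p21, rose in hCYP2B6-Tg females from a mean of 1.66 ± 0.314 (SD) to 19.1 ± 12.6 CPM (log2 fold change 3.52 ± 0.53, edgeR adjusted p = 1.17e-05) and in hCYP2B6-Tg males from 1.75 to 6.38 CPM (1.87 ± 0.60, 0.0119). In Cyp2b-null mice it changed by 0.53 (0.402) in females and 1.30 (0.0688) in males. Cdkn1c (p57) rose in Cyp2b-null males (1.08, 0.00183) and Cdkn2c (p18) in hCYP2B6-Tg males (0.62, 0.0415), while Tob1, an antiproliferative adaptor of mRNA decay, fell in all 4 groups (-0.64 to -0.97).

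Myc, a transcription factor that drives growth, had the lowest adjusted p of the genes named here. It rose in all 4 groups, from means of 3.6 to 29.2 CPM in Cyp2b-null females (log2 fold change 3.02 ± 0.24, edgeR adjusted p = 2.72e-09), 3.37 to 32.5 in hCYP2B6-Tg females (3.28 ± 0.25, 7.33e-10), 4.32 to 20.2 in Cyp2b-null males (2.23 ± 0.48, 0.000619) and 4.68 to 23.3 in hCYP2B6-Tg males (2.33 ± 0.48, 0.000343). E2f8, a repressor of the E2F family, fell in all 4, for example from 5.56 to 1.1 CPM in hCYP2B6-Tg females (-2.33 ± 0.47, 0.000297). Tfdp2, a dimer partner of the E2F proteins, also fell in all 4 (-0.67 to -0.86), and E2f5, another E2F repressor, in hCYP2B6-Tg mice of both sexes. In the list of E2F, RB and DREAM regulators 5, 3, 2 and 2 rose and 3, 4, 2 and 5 fell of 16 tested (medians 0.06, 0.02, 0.13 and -0.17).

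Of the mitotic kinases and phosphatases outside the set 2, 1, 2 and 1 rose and 0, 1, 0 and 1 fell, out of 4 tested in females and 3 in males (medians 0.89, 0.86, 1.23 and 0.31). Wee1, the kinase that holds Cdk1 inactive, rose in Cyp2b-null females (2.16 ± 0.41, edgeR adjusted p = 0.000233) and in both genotypes of males, from 2.34 to 12.7 CPM in hCYP2B6-Tg males (2.44 ± 0.33, 1.58e-06). Nek2, a kinase of centrosome splitting, rose in 3 groups, by 1.11 and 1.23 in Cyp2b-null females and males and by 2.53 ± 0.33 (1.87e-06) in hCYP2B6-Tg females. Bora, an activator of Aurka, fell in hCYP2B6-Tg mice of both sexes. Spindle checkpoint and kinetochore genes gave 1, 1, 2 and 1 that rose and 0, 0, 2 and 0 that fell, of 12 tested in females and 10 in males (medians 0.01, 0.34, -0.04 and 0.11). Zwint, a kinetochore protein, rose in all 4 groups with little spread, from 45.3 ± 2.22 (SD) to 79.7 ± 1.44 CPM in Cyp2b-null females (0.82 ± 0.10, 1.02e-06). Mad2l1, the checkpoint protein that holds Cdc20, rose in Cyp2b-null males (1.31, 0.000601), where its partner Mad1l1 fell (-0.53, 0.019). The untreated mean of Mad2l1 there was 0.896 CPM, so its rise is given as description.

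Spindle motor, cytokinesis and centrosome genes gave 1, 3, 3 and 1 that rose and 0 that fell in each group, of 12 tested in females and 4 in males (medians 0.94, 1.03, 2.54 and 0.88). The list holds 23 genes, and most of those in males were too scarce to test. Untreated means were under 1 CPM for Ect2 in Cyp2b-null males and Ckap2 (0.616 CPM) in hCYP2B6-Tg females. These counts and medians are therefore given as description. Ect2, which starts the cleavage furrow, rose in all 4 groups, from 0.764 ± 0.180 (SD) to 6.57 ± 2.12 CPM in Cyp2b-null males (3.10 ± 0.35, edgeR adjusted p = 1.31e-07), and Ckap2, a spindle protein, in hCYP2B6-Tg females (2.47, 0.0139). Cohesin and condensin genes gave 1, 2, 3 and 1 that rose and 0, 3, 1 and 3 that fell, of 13 tested in females and 12 in males (medians -0.11, -0.11, 0.15 and 0.05). Smc3, Stag2 and Rad21, parts of the cohesin ring, fell in hCYP2B6-Tg males by 0.41, 0.42 and 0.23 on the log2 scale, and Ncaph2, of condensin II, rose in all 4 groups (0.27 to 0.34). Of anaphase-promoting complex and SCF ligase genes 4, 5, 4 and 5 rose and 0, 1, 2 and 1 fell, out of 17 tested in females and 15 in males (medians 0.00, 0.01, 0.12 and 0.03), among them the complex subunits Cdc16 and Cdc27 in all 4 groups (0.35 to 0.58) and Cks1b, a CDK adaptor, in 3.

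**Figure D5:**
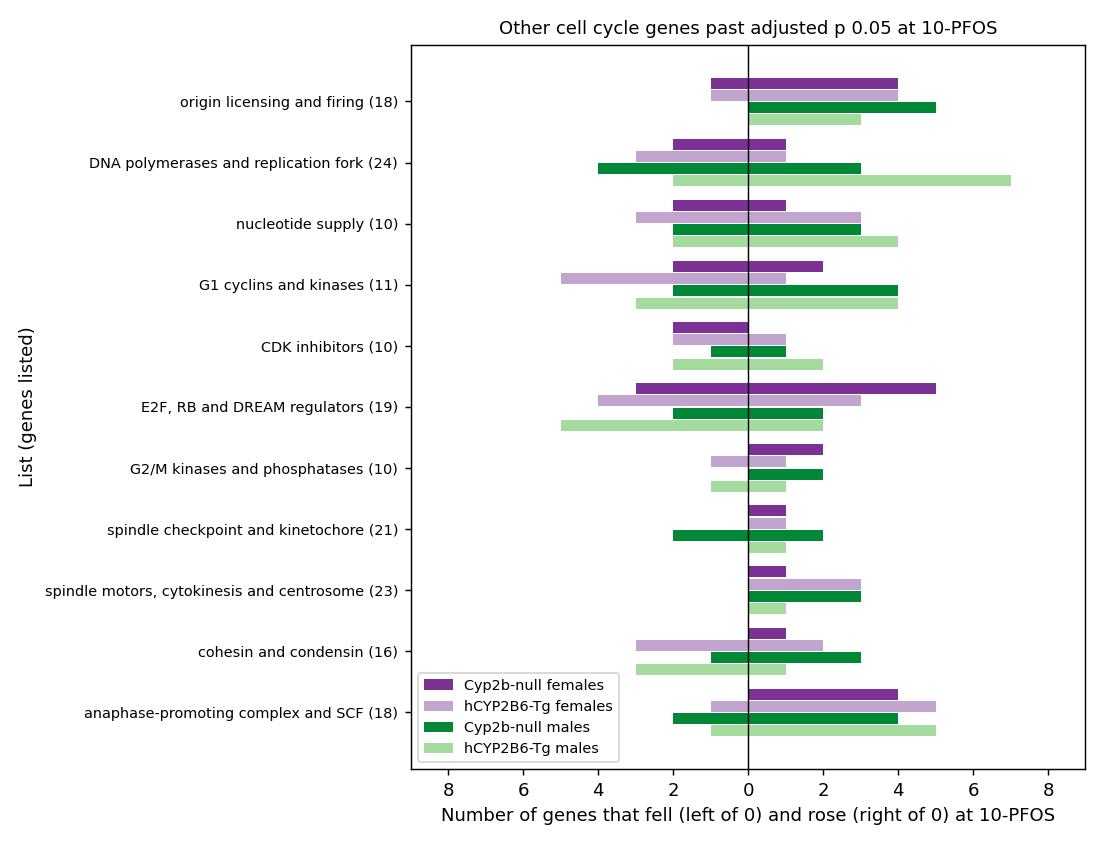
Number of genes of each of the 11 lists that rose (bars to the right) or fell (bars to the left) at 10-PFOS against 0-PFOS in each sex and genotype, at an adjusted p under 0.05. The spindle motor list has bars to the right only, with 1 to 3 genes a group, while the polymerase, nucleotide supply and E2F lists have bars on both sides in every group. Of the 23 spindle motor genes only 12 were tested in females and 4 in males, so these bars are given as description.

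Markers of other liver cells moved with the same doses. The summed level of 10 Kupffer cell and macrophage markers went from 369 to 446 CPM at 0-PFOS to 121 to 202 CPM at 10-PFOS in Cyp2b-null females and from 347 to 512 to 150 to 246 CPM in hCYP2B6-Tg females, with 10 and 9 of 10 fallen. In males it went from 94.7 to 193 to 77.6 to 106 CPM in Cyp2b-null and from 138 to 202 to 89.3 to 119 CPM in hCYP2B6-Tg mice, with 6 and 2 of 10 fallen. None of the 10 was at 0. Of 8 erythroid markers 6 were tested, and 5, 4, 5 and 5 of them fell in the 4 groups, with summed levels of 322 to 978 CPM at 0-PFOS and 104 to 446 CPM at 10-PFOS. Of the erythroid markers Slc4a1 was at 0 in hCYP2B6-Tg females at 10-PFOS. The hepatocyte sum went from 98600 to 108000 CPM to 43700 to 52700 CPM in Cyp2b-null females, and 4, 5, 6 and 6 of 7 markers fell. The T and B lymphocyte sum was at most 10.4 CPM in any mouse, the neutrophil and monocyte sum at most 7.01 CPM, and the endothelial sum 94.7 to 249 CPM at 0-PFOS and 99.9 to 211 CPM at 10-PFOS. The sum of 7 stellate cell and fibroblast markers went from 188 to 281 to 127 to 176 CPM in Cyp2b-null females and from 189 to 275 to 161 to 183 CPM in hCYP2B6-Tg females, with 3 and 2 of 7 fallen. In males it went from 98.8 to 134 to 84 to 130 CPM in Cyp2b-null (1 rose and 2 fell) and from 90.3 to 97.7 to 102 to 127 CPM in hCYP2B6-Tg mice (2 rose). The sum of 6 cholangiocyte markers was 13 to 43.9 CPM at 0-PFOS and 9.44 to 30 CPM at 10-PFOS. In the 4 Cyp2b-null females at 10-PFOS the erythroid sum was 121, 446, 192 and 358 CPM, in the same order of mice as their Mki67, while in Cyp2b-null males it was 134, 265, 127 and 135 CPM and replicate 4 had the most Mki67. In hCYP2B6-Tg mice at 10-PFOS it was 225, 344, 133 and 239 CPM in females and 197, 104, 254 and 141 CPM in males. Replicate 2 had the highest sum and the least Mki67 of these females, and the lowest sum and the most Mki67 of these males. The part of these markers in the changes of Mcm10, Tk1, Mki67 or any other gene was not tested. At 0-PFOS the macrophage sum was also higher in females than in males, each on the scale of its sex, and so were the endothelial sum (185 to 249 against 94.7 to 143 CPM) and the stellate and fibroblast sum (188 to 281 against 90.3 to 134 CPM). None of these 3 sums overlapped between the untreated sexes, and their part in the difference between untreated sexes was not tested.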

How the data were processed

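Liver mRNA was sequenced from 48 mice, and 2 tables of read counts per gene, 1 per sex, were used. The authors trimmed reads with Trim Galore, aligned them with RSEM to GRCm39 and deposited raw counts from featureCounts, with no versions given. No source used here states the strand setting, and even numbers made up 91.1% (females) and 91.2% (males) of all nonzero counts. The reads of a pair may thus have been counted singly, with counts then near 2 times the fragments, and counts halved and rounded up were run as an alternative, which called 5, 10, 10 and 9 genes at 10-PFOS in the 4 groups. The mean total of 59808100 counts, however, is more than 2 for each raw read pair of the mean that the paper gives. Halving may therefore not bring the counts back to fragments, and the reason was not tested. From 40872 rows, 25 that name no gene properly were left out, holding 0.0432% of counts in females and 0.0281% in males. Another 64 columns of values per sample in other deposited tables were not used, nor were tables that hold the authors' own fold changes and p-values.

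Each sex was fitted alone over its 24 libraries and 6 groups (R 4.3.3, edgeR 4.0.16, limma 3.58.1) with TMM scaling and the quasi-likelihood F test, after keeping genes above 1 CPM in at least 3 of 4 mice of a group. Sexes were compared in 1 fit of all 48 libraries. P-values were adjusted by the Benjamini-Hochberg method over all genes tested. The standard error is the size of the log2 fold change divided by the square root of F. DESeq2 1.42.0, no filter, library totals, fits to the compared groups alone, the replicate block and leaving out each library were alternatives. Genes beside the members are those of 11 lists, from each of which at most 4 are named, those with the largest absolute log2 fold change at 10-PFOS among calls whose mice did not overlap. The members and lists were chosen with earlier results of these data known. Scripts were tested on simulated data. Labels mark separate mice, the replicate numbers name mice only, and no 2 libraries agreed within sampling noise.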

Additional observations from a re-analysis of the deposited data

Results flagged for a closer look

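In 13 of 252 groups of 4 mice searched 1 mouse stood far from the other 3, its gap to the nearest taking up most of the whole range, and chance flags about 1 in 20 such groups. Of these, 5 values belong to the treated mice already named as highest for most genes. Replicate 2 of Cyp2b-null females at 10-PFOS had 6.75 CPM of Mcm3 against 4.03 to 4.49 in the others, and 2.47 CPM of Uhrf1 against 1.01 to 1.25. Replicate 4 of Cyp2b-null males at 10-PFOS had 14.6 CPM of Mki67 against 2.73 to 4.29. Replicate 4 of hCYP2B6-Tg females at 10-PFOS had 2.64 CPM of Cdk1 against 1.44 to 1.55. Replicate 2 of hCYP2B6-Tg males at 10-PFOS had 5.89 CPM of Mcm4 against 3.12 to 3.47.

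At 1-PFOS all such mice were hCYP2B6-Tg females, with 4.35 CPM of Mki67 in replicate 1 against 3.11 to 3.27, 8.59 CPM of Mcm10 in replicate 2 against 13 to 13.7, and 1.29 CPM of Uhrf1 in replicate 3 against 0.194 to 0.346. At 0-PFOS, replicate 1 of hCYP2B6-Tg females had 19 CPM of Pcna against 16.7 to 16.9. Replicate 2 of Cyp2b-null males had 2.11 CPM of Mcm2 against 1.4 to 1.51 and 1.67 CPM of Mcm6 against 2.25 to 2.34. Replicate 2 of hCYP2B6-Tg males had 0.718 CPM of Cdc20 against 0.165 to 0.168 and 1.16 CPM of Ezh2 against 2.58 to 2.87.

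The effect of 10-PFOS on Mcm6 differed between the sexes in hCYP2B6-Tg mice, with a female minus male difference in log2 fold change of -1.48 by the interaction test.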

How the results depend on the processing

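Of 58 calls on single genes, 32 held under every alternative run. Called genes at 10-PFOS numbered 2 to 7 in Cyp2b-null females without 1 library (2 without replicate 1 at 0-PFOS, 7 without replicate 1 at 10-PFOS), 6 to 11 in hCYP2B6-Tg females (6 without replicate 4 at 10-PFOS), 10 to 11 in Cyp2b-null males and 8 to 10 in hCYP2B6-Tg males. At 1-PFOS they numbered 0 to 0 in both genotypes of females, 2 to 7 in Cyp2b-null males and 2 to 3 in hCYP2B6-Tg males. For the genotype comparisons and the genotype interaction they were 0 to 0, for the sex interaction 0 to 4 in Cyp2b-null and 0 to 6 in hCYP2B6-Tg mice, and for untreated females against males 3 to 8 and 3 to 4. With no filter, 19 genes were called at 10-PFOS in Cyp2b-null males and 1 in the genotype interaction of males. With library totals, 4 were called at 1-PFOS in Cyp2b-null males, 1 and 7 in the sex interaction of Cyp2b-null and hCYP2B6-Tg mice, and 18 and 15 between untreated sexes. In the same fit the female minus male difference of Pcna turned from -0.05 to 0.38 and from -0.11 to 0.35. DESeq2 called 3 in the sex interaction of hCYP2B6-Tg mice, and a fit to the groups compared alone called 0 there and 3 at 10-PFOS in Cyp2b-null females. The causes were not tested.

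Replicate numbers do not pair mice: over 60 pairs of groups a sex, the deviations of mice with the same number had a median correlation of 0.02 in females and -0.01 in males. With the replicate block, 4, 9, 10 and 9 genes were called at 10-PFOS in the 4 groups. Genes near 1 CPM rest on few reads, and 8 of 32 in females and 14 in males could not be tested.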
